A study of Rattus norvegicus with 28 samples.

Results

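The neonatal Fc receptor and the lysosomal enzymes of suckling enterocytes were followed as 9 genes in the terminal ileum of newborn rats. They were Fcgrt, the heavy chain of the neonatal Fc receptor, the lysosomal membrane proteins Lamp1 and Lamp2, the cathepsins Ctsb, Ctsd, Ctsh and Ctsl, and the hydrolases Gusb and Arsb. The probe sets were those that the platform annotation assigns to these symbols. The array carried 17 such probe sets for 8 of the 9 genes, of 4736 genes with a symbol in all. Gusb, beta-glucuronidase, had no probe set under its symbol in the annotation used here and is not reported. Of the 17 probe sets, 14 lay above the filter on dim signals, and 3 of the 4 Lamp1 probe sets lay below it. All 8 genes therefore entered the tests, which covered 3185 genes, each through its brightest probe set.

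The arrays came from 28 rat pups, 1 array per pup. One regimen combined formula feeding with hypoxia, applied 3 times daily, and ileum was collected from 3 pups on each of days 1, 2, 3 and 4 of life. The other was breast feeding, with 3 pups on each of the same days. A further 4 newborns had not been fed. Formula and hypoxia were always given together and cannot be told apart, no strain is given in the labels, and nothing in the labels ties pups to litters. Values are signals on a linear scale after quantile normalisation, and differences are on the log2(signal + 8) scale with 95% confidence intervals. Called means an adjusted p under 0.05 in limma, adjusted by Benjamini-Hochberg over the 3185 genes. Signals of different probe sets cannot be set against each other as amounts of transcript.

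In the suckling rodent, the gut takes up whole proteins from milk. The Fc receptor, a heavy chain paired with B2m, carries maternal IgG across enterocytes, mainly of the upper small intestine, and protects it from degradation. In the ileum, vacuolated enterocytes take up milk proteins by endocytosis and digest them in large lysosomes. There cathepsins cut the proteins, glycosidases and sulfatases trim their sugars, and Lamp1 and Lamp2 line the membrane.

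The arrays had median signals as deposited between 25.8 and 53.9. Breast-fed day 3 replicate 3 and breast-fed day 4 replicate 2 stood apart: 69 of 754 and 48 of 757 abundant probe sets were more than 16-fold below their usual signal, against 0 to 2 in the other 26 arrays. None of the lost probe sets belonged to the 8 genes (0 in every array), but only probe sets with a usual signal above 500 were counted. The Arsb probe set, with a mean signal of 155, could not be counted. Nor could the dimmer probe sets of Fcgrt, Lamp1, Lamp2 and Ctsd. The samples carry accession numbers in a pair of runs of 19 and 9 arrays, and the smaller run held 1 formula and hypoxia array (day 4 replicate 3), 5 breast-fed arrays (replicate 2 of day 1, replicate 3 of day 3 and the whole of day 4) and 3 unfed arrays. Whether the runs were processed apart is not stated. Enterocyte markers were present throughout: 13 of 16 listed markers were measured and all 13 lay above the filter. Between the regimens over days 0 of the 13 were called, beside 11.4% of all genes tested. At an unadjusted p under 0.05, 2 of the 13 passed, beside 26.8% of all genes.

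**Figure D1:**
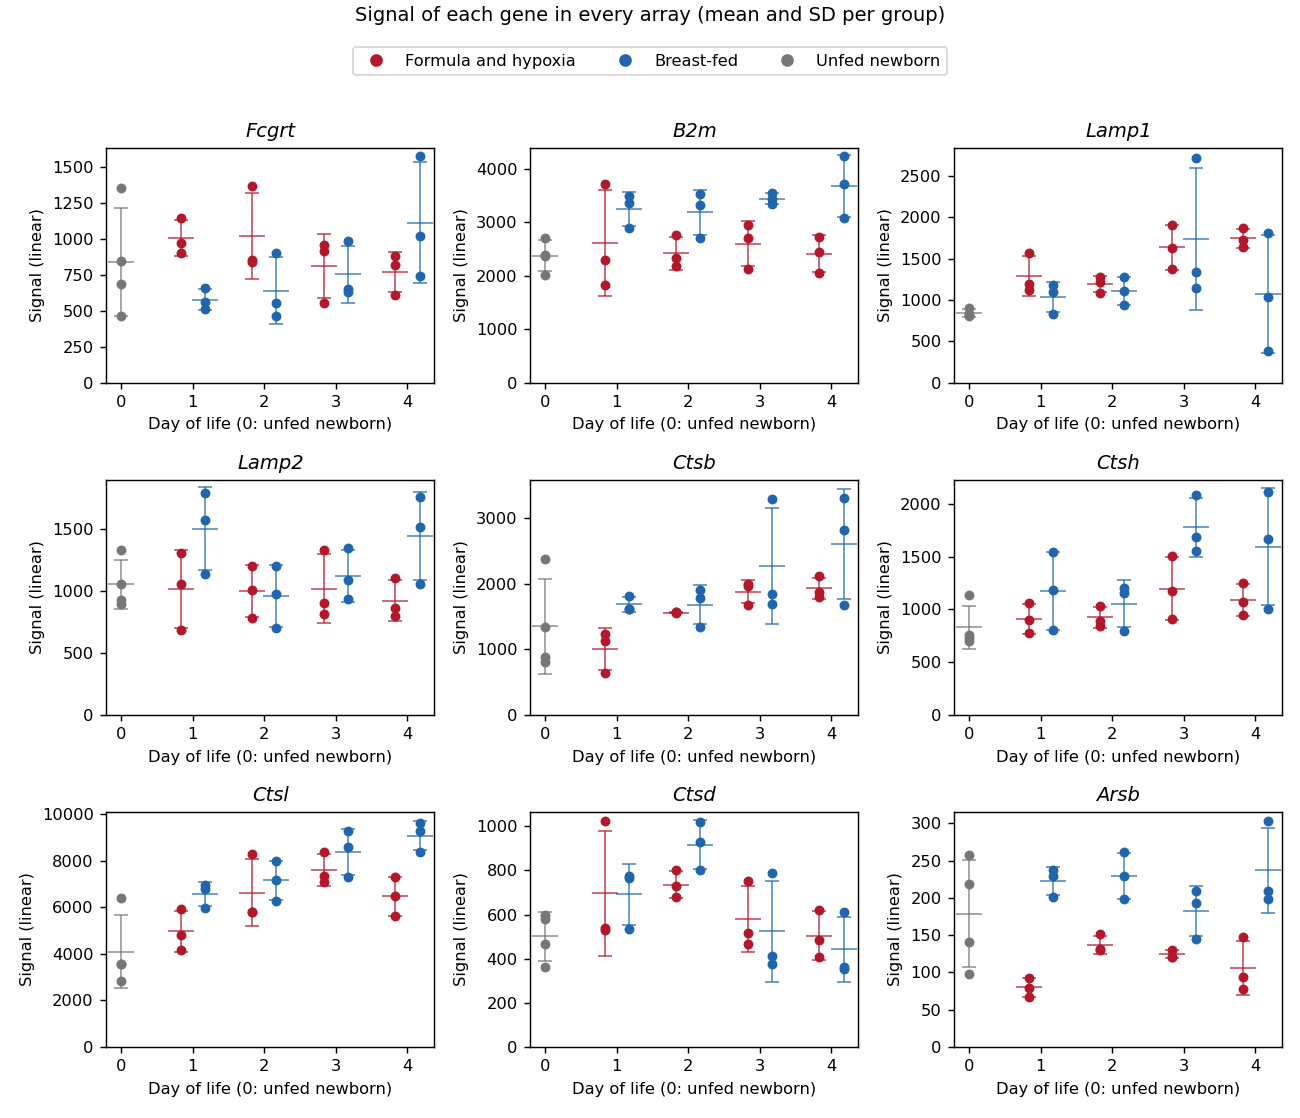
Signal (linear scale) against day of life for the 8 genes with probe sets and for B2m, the light chain of the Fc receptor. Each point is 1 array, horizontal lines are group means and bars are SDs. Unfed newborns stand at day 0. On every day the formula and hypoxia pups lay below the breast-fed pups for Arsb, with no overlap within a day.

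Arsb was lower under formula and hypoxia than under breast feeding. Arsb encodes arylsulfatase B, which removes sulfate groups from dermatan and chondroitin sulfate. On day 1 its signals were 92.8, 67.4 and 79.6 under formula and hypoxia, against 201, 230 and 237 in breast-fed pups. Day 2 gave 151, 131 and 130 under formula and hypoxia, against 199, 229 and 261 in breast-fed pups. A gap was seen on each of the other days too. Day 3 gave 121, 121 and 130 under formula and hypoxia, against 193, 145 and 210 in breast-fed pups, and day 4 gave 93.3, 147 and 77.1 under formula and hypoxia, against 303, 210 and 198 in breast-fed pups. Within each day every formula and hypoxia pup lay below every breast-fed pup, although the highest formula and hypoxia value of any day passed the lowest breast-fed value of any day.

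Averaged over days 1 to 4, Arsb was 1.91-fold lower (95% confidence interval 1.57 to 2.33, adjusted p = 5.59e-05), at 112 ± 28.4 under formula and hypoxia and 218 ± 39.1 in breast-fed pups (SD, n = 12 each). It was the only one of the 8 genes called in this comparison, in which 11.4% of all genes tested were called and 6.75% were called lower. The call held when the accession run was a term in the model (log2 difference -0.86, adjusted p = 0.00097) and within the first run (log2 difference -0.83, adjusted p = 0.00175). Within the second run only day 4 could be compared, with 1 formula and hypoxia pup left, and the difference was -1.50.

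By day, the log2 difference of Arsb was -1.40 on day 1 (adjusted p = 0.0349), -0.71 on day 2 (adjusted p = 0.312), -0.51 on day 3 (adjusted p = 0.349) and -1.13 on day 4 (adjusted p = 0.0352). The backgrounds of genes called on these days were 0.283%, 1.48%, 1.98% and 2.01%, and those called lower were 0.22% on day 1 and 1.29% on day 4. Arsb thus passed on days 1 and 4, and 0 of the 8 genes passed on days 2 and 3. At an unadjusted p under 0.05, 3, 1, 0 and 4 of the 8 genes passed on days 1 to 4, against 9.14%, 10.3%, 16.5% and 14.9% of all genes. The day 1 call was lost without any 1 of its 6 arrays (adjusted p between 0.0558 and 0.131). The day 4 call was lost without any 1 of formula and hypoxia replicates 1 and 3 and breast-fed replicates 1 and 2 (0.162, 0.12, 0.102 and 0.071). When each of 5244 probe sets was tested by itself, 0.0191% were called on day 1 and Arsb had an adjusted p of 0.0502. With the run as a term the adjusted p was 0.0608 on day 1 and 0.171 on day 4.

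The unfed newborns had Arsb signals of 97.9, 219, 141 and 257, which overlapped the range of each regimen over all days. Every formula and hypoxia pup of day 1 lay below every unfed pup. Against them, day 1 of formula and hypoxia was lower by a log2 difference of -1.01 (adjusted p = 0.113) and day 1 of breast feeding stood at 0.39 (adjusted p = 0.893), and neither passed. Both comparisons share the unfed arrays.

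**Figure D2:**
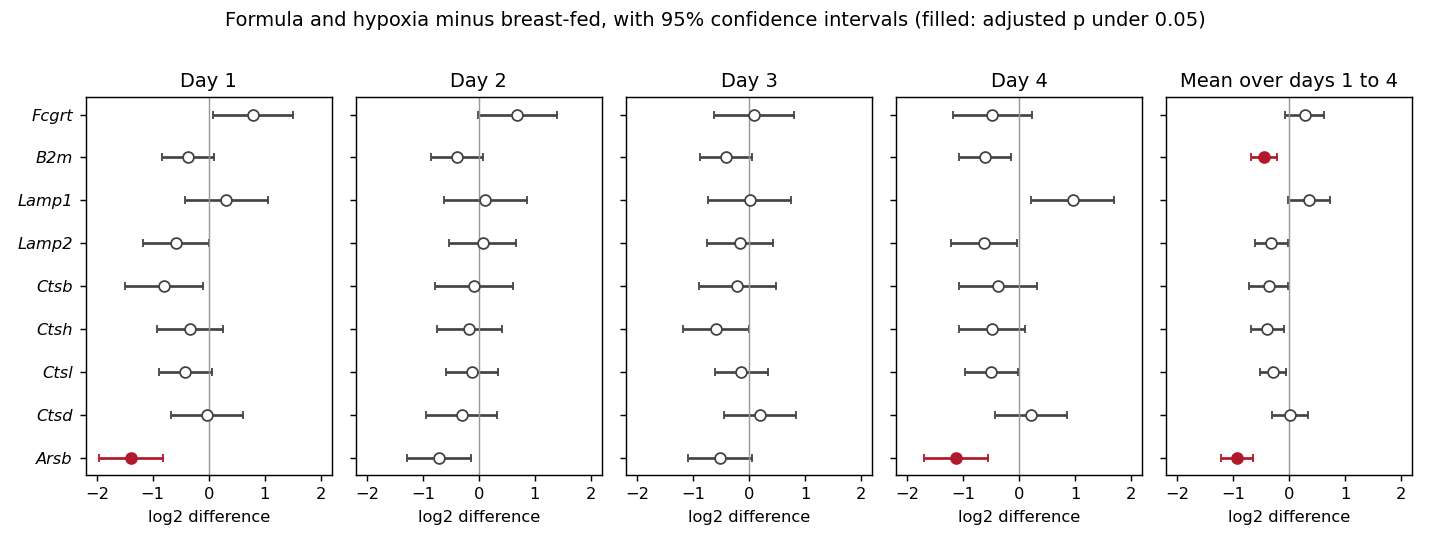
Log2 difference, formula and hypoxia minus breast-fed, with 95% confidence intervals, on each day and as the mean over days 1 to 4. Filled points have an adjusted p under 0.05. Arsb is filled on days 1 and 4 and in the mean (-0.94), and B2m in the mean (-0.45).

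Marker lists of other cell types were read beside Arsb. Of 24 listed macrophage and granulocyte markers 14 were measured and 11 lay above the filter, and their summed signal was 1915 to 3651 under formula and hypoxia (median 2357) and 2934 to 4828 in breast-fed pups (median 3632). Ctss, itself a lysosomal cathepsin, made up most of the sum: without it the sums were 797 to 1278 (median 989) under formula and hypoxia and 795 to 1525 (median 1074) in breast-fed pups. Over days, 4 of the 11 were called lower (Ctss, Aif1, Cd53 and Coro1a) and 1 higher (S100a9), 5 of the 11 had differences above 0 and the median was -0.10. The receptor gene Csf1r and the integrin gene Itgam had mean signals of 22.8 and 4.82, below the filter. Of the mast cell markers 4 of 6 were called lower, with summed signals of 406 to 1275 under formula and hypoxia and 1147 to 2142 in breast-fed pups. Of the fibroblast and matrix markers 3 of 12 were called lower (Lum -1.54, Postn -1.44 and Dcn -0.86), with a median of -0.32 and summed signals of 6335 to 10397 under formula and hypoxia and 7443 to 15612 in breast-fed pups. Of the red cell markers 5 of 6 were called higher, with summed signals of 12363 to 19733 under formula and hypoxia and 7784 to 16103 in breast-fed pups. The part of these cells in the Arsb difference was not tested. In bulk tissue, fewer cells of a type and less transcript per cell cannot be told apart.

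Of the Fc receptor pair, B2m was lower under formula and hypoxia than under breast feeding, and Fcgrt was not called. Fcgrt averaged 902 ± 214 under formula and hypoxia and 773 ± 312 in breast-fed pups (SD, n = 12 each), a log2 difference of 0.27 (95% confidence interval -0.08 to 0.63, adjusted p = 0.328). B2m, the light chain that Fcgrt needs to leave the endoplasmic reticulum and that also belongs to class I histocompatibility molecules, averaged 2514 ± 509 under formula and hypoxia and 3393 ± 392 in breast-fed pups (SD, n = 12 each). It was 1.36-fold lower under formula and hypoxia (95% confidence interval 1.16 to 1.60, adjusted p = 0.0105), with 11 of 12 formula and hypoxia arrays below the breast-fed mean of their day. The unfed newborns had a B2m mean of 2374 ± 289 (SD, n = 4). Against them, day 1 of formula and hypoxia stood at 0.08 (adjusted p = 0.949) and day 1 of breast feeding at 0.46 (adjusted p = 0.835). The B2m call was lost with the values as deposited (adjusted p = 0.106), with arrays scaled to a common median (0.117) and within the first run (log2 difference -0.38, adjusted p = 0.138).

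Behind the mean of Fcgrt lay daily differences of both signs. On day 1 its signals were 976, 1144 and 901 under formula and hypoxia, against 516, 657 and 564 in breast-fed pups, with all 3 formula and hypoxia pups above all 3 breast-fed pups. Day 2 gave 842, 857 and 1369 under formula and hypoxia, against 558, 903 and 461 in breast-fed pups. From day 2 on the ranges overlapped. Day 3 gave 960, 553 and 917 under formula and hypoxia, against 634, 650 and 985 in breast-fed pups, and day 4 gave 613, 881 and 817 under formula and hypoxia, against 1576, 1023 and 744 in breast-fed pups. The log2 difference was 0.79 on day 1 (adjusted p = 0.478), 0.69 on day 2 (0.507), 0.09 on day 3 (0.933) and -0.48 on day 4 (0.573). None of these passed the test.

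The change of the Fcgrt difference between days 1 and 4 was tested itself, as an interaction. The day 4 difference minus the day 1 difference was -1.27 (SE 0.49, 95% confidence interval -2.27 to -0.26), with an unadjusted p of 0.0156 and an adjusted p of 0.513. In this comparison 0.157% of all genes and 0 of the 8 genes were called, and at an unadjusted p under 0.05 Fcgrt was 1 of 8 genes, against 7.06% of all genes. Both other Fcgrt probe sets gave values of the same sign, -1.16 and -1.32. Probe sets of a gene read the same RNA of the same pups and are not independent.

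In breast-fed pups Fcgrt was 0.87 higher on the log2 scale on day 4 than on day 1 (adjusted p = 0.216), with no overlap of the 3 and 3 arrays on any of its 3 probe sets. All 3 breast-fed day 4 arrays belong to the second accession run. Within that run, which holds only 1 breast-fed day 1 array, the difference was 0.69 (adjusted p = 0.732). Under formula and hypoxia the day 4 minus day 1 difference was -0.39 (adjusted p = 0.502).

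Ordered by group mean, Fcgrt ran from breast-fed day 4 (1114) through formula and hypoxia days 2 and 1 (1023 and 1007), unfed newborns (840), formula and hypoxia days 3 and 4 (810 and 770) and breast-fed days 3 and 2 (756 and 641) to breast-fed day 1 (579). The unfed values were 849, 1358, 690 and 464. The ranges of every pair of neighbours in this order overlapped. Across the 9 group means the genes most like Fcgrt by Pearson's r were Bckdha, a subunit of branched-chain ketoacid dehydrogenase (0.82), the vesicular GABA transporter gene Slc32a1 (0.792), the chymotrypsin C gene Ctrc (0.79), Tgfbrap1 (0.787) and the glutathione transferase gene Gstm5 (0.787). The other lysosomal genes correlated with Fcgrt between -0.416 and -0.00677. Each point here is a mean of 3 or 4 arrays that both genes share, and the correlations are given as a description.

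**Figure D3:**
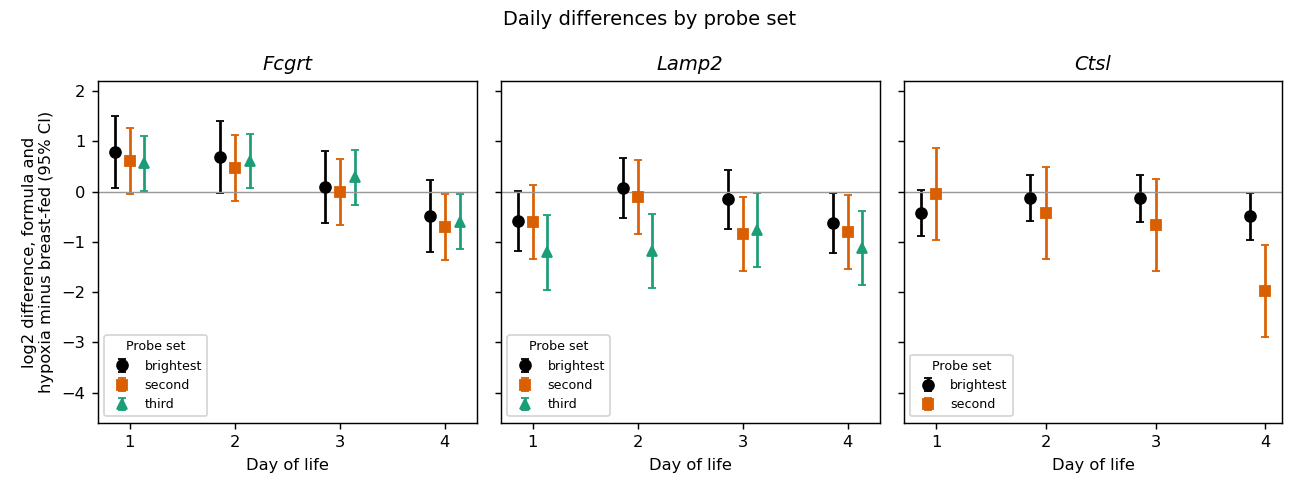
Log2 difference, formula and hypoxia minus breast-fed, on days 1 to 4 for each probe set above the filter of Fcgrt, Lamp2 and Ctsl, ranked by mean signal, with 95% confidence intervals. The 3 Fcgrt probe sets lie above 0 on days 1 and 2 and below 0 on day 4, and the second Ctsl probe set is lowest on day 4 (-1.98).

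The membrane proteins Lamp1 and Lamp2, heavily glycosylated proteins that shield the lysosomal membrane, had differences of opposite sign. Lamp1 averaged 1466 ± 293 under formula and hypoxia and 1237 ± 572 in breast-fed pups (SD, n = 12 each), a log2 difference of 0.35 (adjusted p = 0.217). On day 4 its signals were 1867, 1723 and 1644 under formula and hypoxia against 382, 1805 and 1034 in breast-fed pups, a difference of 0.95 (adjusted p = 0.193). The formula and hypoxia arrays lay close together there and the breast-fed arrays were spread widely, with breast-fed replicate 1 far below the others. With the pair of arrays short of probe sets left out, Lamp1 was called higher over days and on day 4. Without breast-fed day 4 replicate 1 the day 4 difference was 0.35 (adjusted p = 0.637). The unfed newborns had 821, 831, 809 and 907.

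Lamp2, which also takes part in chaperone-mediated autophagy, averaged 986 ± 215 under formula and hypoxia and 1254 ± 343 in breast-fed pups (SD, n = 12 each), a log2 difference of -0.32 (adjusted p = 0.146) on its brightest probe set. Its other probe sets differed more. When each of 5244 probe sets was tested by itself, 10.5% were called over days, and these included the second Lamp2 probe set (-0.59, adjusted p = 0.0351) and the third (-1.07, adjusted p = 0.000339) but not the brightest (-0.32, adjusted p = 0.153). The third probe set averaged 74.7 ± 31.2 under formula and hypoxia and 159 ± 49.6 in breast-fed pups (SD, n = 12 each), and all 12 formula and hypoxia arrays lay below the breast-fed mean of their day. Which transcripts of Lamp2 each probe set reads is not given in the sources used here.

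Among the cathepsins, the cysteine proteases Ctsb, Ctsh and Ctsl had means under formula and hypoxia below those of breast-fed pups, and the aspartic protease Ctsd had means close to each other. Ctsh, which acts mainly as an aminopeptidase, averaged 1030 ± 204 under formula and hypoxia and 1399 ± 447 in breast-fed pups (SD, n = 12 each), a log2 difference of -0.39 (95% confidence interval -0.69 to -0.10, adjusted p = 0.0762). Ctsb averaged 1591 ± 420 under formula and hypoxia and 2056 ± 677 in breast-fed pups, a difference of -0.37 (adjusted p = 0.159). Ctsl averaged 6408 ± 1307 under formula and hypoxia and 7788 ± 1223 in breast-fed pups, a difference of -0.29 (adjusted p = 0.0984). For Ctsb and Ctsh all 12 formula and hypoxia arrays lay below the breast-fed mean of their day on the log2 scale, and for Ctsl 10 of 12 did. None of the 3 passed the test.

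Ctsd stood at 629 ± 176 under formula and hypoxia and 643 ± 234 in breast-fed pups (SD, n = 12 each). The log2 difference was 0.01, with a 95% confidence interval from -0.31 to 0.34 (adjusted p = 0.965). Its second probe set gave -0.09.

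The second Ctsl probe set differed from the brightest. Tested by itself it was called lower over days (-0.78, adjusted p = 0.0259) and on day 4 (-1.98, adjusted p = 0.0239), when 1.64% of probe sets were called. Its day 4 signals were 689, 1860 and 1681 under formula and hypoxia against 5336, 4628 and 5387 in breast-fed pups, with no overlap. The brightest Ctsl probe set on day 4 gave 5598, 7293 and 6495 under formula and hypoxia against 9250, 9601 and 8361 in breast-fed pups, also with no overlap, and a difference of -0.49 (adjusted p = 0.291).

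Over the 9 group means, Ctsb, Ctsh and Ctsl varied together, with Pearson's r of 0.876 for Ctsb and Ctsl, 0.841 for Ctsh and Ctsl and 0.825 for Ctsb and Ctsh. Lamp2 and Arsb had an r of 0.623. Lamp1 had an r of -0.566 with Arsb and -0.503 with Lamp2, and of 0.313 with Ctsl, 0.285 with Ctsh and 0.202 with Ctsb. The median difference of the 8 genes over days was -0.31, beside 0.02 over all genes tested, and 5 of the 8 had an unadjusted p under 0.05, beside 26.8% of all genes.

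With age, 0 of the 8 genes were called in either regimen, where 13.3% of all genes were called for day 4 against day 1 under formula and hypoxia and 0.314% in breast-fed pups. The breast-fed share depends on the scaling: 10 genes were called higher and 0 lower, against 147 higher and 2 lower with the values as deposited. Under formula and hypoxia Ctsb had the lowest adjusted p of the 8. Its signals were 2109, 1875 and 1791 on day 4, against 1236, 641 and 1127 on day 1. The day 4 and day 1 ranges did not overlap, and day 4 was 1.99-fold above day 1 (adjusted p = 0.0509). This log2 difference of 0.99 passed in 6 of 19 alternatives, such as the first accession run alone (1.04, adjusted p = 0.0147). It was 0.77 with a common median (adjusted p = 0.159), 0.86 with the run as a term (0.101) and 0.70 without formula and hypoxia day 1 replicate 2 (0.223). The days between lay at 1544, 1565 and 1565 (day 2) and 1962, 1995 and 1675 (day 3). In breast-fed pups Ctsb had 3303, 2818 and 1671 on day 4, against 1619, 1619 and 1812 on day 1, a difference of 0.57 (adjusted p = 0.398). The difference between the regimens in this change was 0.42 (adjusted p = 0.9). At an unadjusted p under 0.05, 1 of 8 genes passed under formula and hypoxia and 2 of 8 in breast-fed pups (Fcgrt, and Ctsd at -0.66), against 27.8% and 17% of all genes.

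The summed signal of the 13 enterocyte markers was also higher with age under formula and hypoxia, at 40244 to 47192 on day 4 against 23130 to 28720 on day 1, and 5 of the 13 were called higher. In breast-fed pups the sums were 32513 to 39410 on day 4 against 31088 to 33145 on day 1, and 1 of the 13 was called higher. Of the smooth muscle markers 4 of 8 were called higher under formula and hypoxia, with a median difference of 1.03 (0.92 for the enterocyte markers) and sums of 13039 to 18590 on day 4 against 6595 to 9422 on day 1. The part of changing shares of these cells in the Ctsb values was not tested.

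Against unfed newborns, none of the 8 genes was called on day 1 of either regimen (0.377% of all genes called under formula and hypoxia, 0% under breast feeding). At an unadjusted p under 0.05, 1 gene passed in each, Arsb under formula and hypoxia and Ctsl under breast feeding, against 10% and 5.87% of all genes. Ctsl had 4144, 5902 and 4814 on day 1 of formula and hypoxia and 5975, 6780 and 6942 on day 1 of breast feeding, against 2833, 6381, 3535 and 3559 in unfed newborns. The unfed replicate 2 lay within the breast-fed range and the other unfed pups lay below it. The breast-fed difference was 0.75 (adjusted p = 0.345), and without unfed replicate 2 it was called.

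CACGTG is the core of the element through which the transcription factor TFEB is known to act on lysosomal genes, and it reads the same on both strands. RefSeq promoter windows of the rat assembly GRCr8 were at hand for 7 of the 9 genes, not for Ctsb and Arsb. In the 250 bases upstream of the annotated start, CACGTG occurred in 2 of the 7, Lamp1 and Ctsd, against 5.59% of 33469 promoters. Lamp1 had 5 matches, which began 183, 167, 150, 65 and 38 bases upstream, and Ctsd had 2, which began 157 and 10 bases upstream. The Ctsd window at chr1:206968822-206969071 (minus strand) and the first 30 bases with matches of the Lamp1 window, at chr16:83075217-83075246 (minus strand), are printed because they are the members with this element, with CACGTG in capitals. The start used for Lamp1 lies inside the span that RefSeq gives to the gene.
Ctsd: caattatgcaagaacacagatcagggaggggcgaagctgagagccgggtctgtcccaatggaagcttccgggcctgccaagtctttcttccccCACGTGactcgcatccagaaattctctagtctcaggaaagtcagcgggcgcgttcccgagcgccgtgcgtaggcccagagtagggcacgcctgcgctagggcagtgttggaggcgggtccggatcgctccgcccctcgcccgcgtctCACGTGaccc
Lamp1: CACGTGgcctggagacCACGTGacgccgat
A match is a stretch of letters only. Over days the log2 differences of Lamp1 and Ctsd were 0.35 and 0.01, and neither was called.

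The other genes of lysosomal digestion and of uptake were read from 5 lists. Of 40 other lysosomal hydrolases 11 were tested. Over days 2 were called lower under formula and hypoxia than under breast feeding, and none was called higher. Of all genes 6.75% were called lower and 11.4% in either direction, which also applies to the lists that follow. Ctss, cathepsin S of antigen-presenting cells, averaged 1439 ± 390 under formula and hypoxia and 2508 ± 407 in breast-fed pups (log2 difference -0.82, adjusted p = 0.000334). Fuca1, a fucosidase, averaged 1422 ± 289 under formula and hypoxia and 2201 ± 612 in breast-fed pups (SD, n = 12 each, log2 difference -0.61, adjusted p = 0.000797). The unfed newborns averaged 1609 ± 591 for Ctss and 1053 ± 215 for Fuca1 (SD, n = 4 each). The median difference of the 11 over days was 0.01. Ctss is also on the list of macrophage markers. With age under formula and hypoxia, Lipa, the lysosomal acid lipase, rose, with 1861 ± 385 on day 4 and 760 ± 232 on day 1 (SD, n = 3 each, log2 difference 1.31, adjusted p = 0.0143), a call that was lost in 4 of 19 alternatives. With the mean of its probe sets the difference was 0.66 (adjusted p = 0.201). In breast-fed pups Lipa stood at 1171 ± 180 on day 4 and 611 ± 123 on day 1 (SD, n = 3 each). The breast-fed log2 difference was 0.94 (adjusted p = 0.191), and the difference between the regimens in this change was 0.38 (adjusted p = 0.922).

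Of 37 genes of the lysosomal membrane, its proton pump and sorting to it, 14 were tested. Over days 2 of the 14 were called lower under formula and hypoxia than under breast feeding. That share is near the 11.4% of all genes called in either direction, while 6.75% were called lower. Both genes encode subunits of the proton pump. Atp6v1a averaged 273 ± 51.4 under formula and hypoxia and 392 ± 92.9 in breast-fed pups (-0.50, adjusted p = 0.0243), and Atp6v1d averaged 484 ± 144 under formula and hypoxia and 709 ± 162 in breast-fed pups (-0.57, adjusted p = 0.0153). The Atp6v1a call was lost with the mean of its probe sets (-0.17, adjusted p = 0.307), and both calls were lost both with a term for the run and in the first run alone. The unfed newborns averaged 270 ± 94.6 for Atp6v1a and 804 ± 223 for Atp6v1d (SD, n = 4 each). The median difference of the 14 over days was -0.18. With age under formula and hypoxia, Atp6v1d (-0.95, adjusted p = 0.0388) and Atp6v1c1 (-0.87, adjusted p = 0.0433), a further pump subunit, fell, again 2 of 14 beside 13.3% of all genes. These calls were lost in 8 and 9 of 19 alternatives, among them the values as deposited (0.0576 and 0.136) and a common median (0.0765 and 0.0718).

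Of 7 cathepsin inhibitors 3 were tested and none was called over days (2 at an unadjusted p under 0.05), with Cst3, cystatin C, at -0.28, Cstb at 0.38 and Serpina3n at 0.17. On day 4 Cst3 was lower (-0.82, adjusted p = 0.0466), a gene outside the naming rule that was chosen after its value was seen. That call was lost in 13 of 19 alternatives, among them each of the 6 that left out an array (adjusted p between 0.0538 and 0.19).

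Of 31 genes of the Fc receptor partner and endocytic uptake 19 were tested, with 3 lower over days, 1 higher and a median of -0.22. Beside B2m, these were Lrp2, the uptake receptor megalin (-0.70, adjusted p = 0.00233), Rab11a of recycling endosomes (-0.42, adjusted p = 0.0491), and, higher, its motor Myo5b (0.50, adjusted p = 0.0266). Lrp2 averaged 63.1 ± 23.5 under formula and hypoxia and 112 ± 50.6 in breast-fed pups (SD, n = 12 each). Within the first run, where only days 1 to 3 entered, the Lrp2 difference was -0.57 (adjusted p = 0.057). The Rab11a call was lost in 30 of 38 alternatives and the Myo5b call in 10 of 38.

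Of 21 genes that mark the suckling or the mature enterocyte 12 were tested, with 1 higher and 2 lower over days and a median of 0.05. Klf4, a factor of epithelial differentiation, was higher (0.65, adjusted p = 0.00342), and Otc, a urea cycle enzyme of the neonatal gut (-0.46, adjusted p = 0.0181), and Afp, alpha-fetoprotein (-1.55, adjusted p = 0.00227), were lower. With age under formula and hypoxia Klf4 rose, at 451 ± 135 on day 4 and 101 ± 23.2 on day 1 (2.05, adjusted p = 0.000241), and Hnf4a, a nuclear receptor of enterocytes, fell, at 41.4 ± 36.7 on day 4 and 88.9 ± 5.65 on day 1 (-1.22, adjusted p = 0.0325). The Hnf4a call was lost in 9 of 19 alternatives. The difference was -0.80 without formula and hypoxia day 4 replicate 1 (adjusted p = 0.244) and -0.83 with the mean of its probe sets (adjusted p = 0.123). In breast-fed pups Hnf4a stood at 70.7 ± 23.0 on day 4 and 127 ± 29.7 on day 1 (-0.80, adjusted p = 0.284). Klf4 differed there by 0.48 (adjusted p = 0.398). The difference between the regimens in this change was -0.43 for Hnf4a (adjusted p = 0.912) and 1.57 for Klf4 (adjusted p = 0.123). The first accession run holds no breast-fed day 4 array, so only days 1 to 3 entered there. Within it the differences of Klf4, Otc and Afp were 0.41, -0.48 and -1.01 and did not pass (adjusted p = 0.159, 0.0806 and 0.158). With all arrays their day 4 differences were 1.52, -0.65 and -2.87. In breast-fed pups none of the genes of the 5 lists was called for day 4 against day 1, beside 0.314% of all genes. At an unadjusted p under 0.05, 2 of 11, 1 of 14, 1 of 3, 3 of 19 and 4 of 12 passed. These follow the order of the lists here, and 17% of all genes passed.

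**Figure D4:**
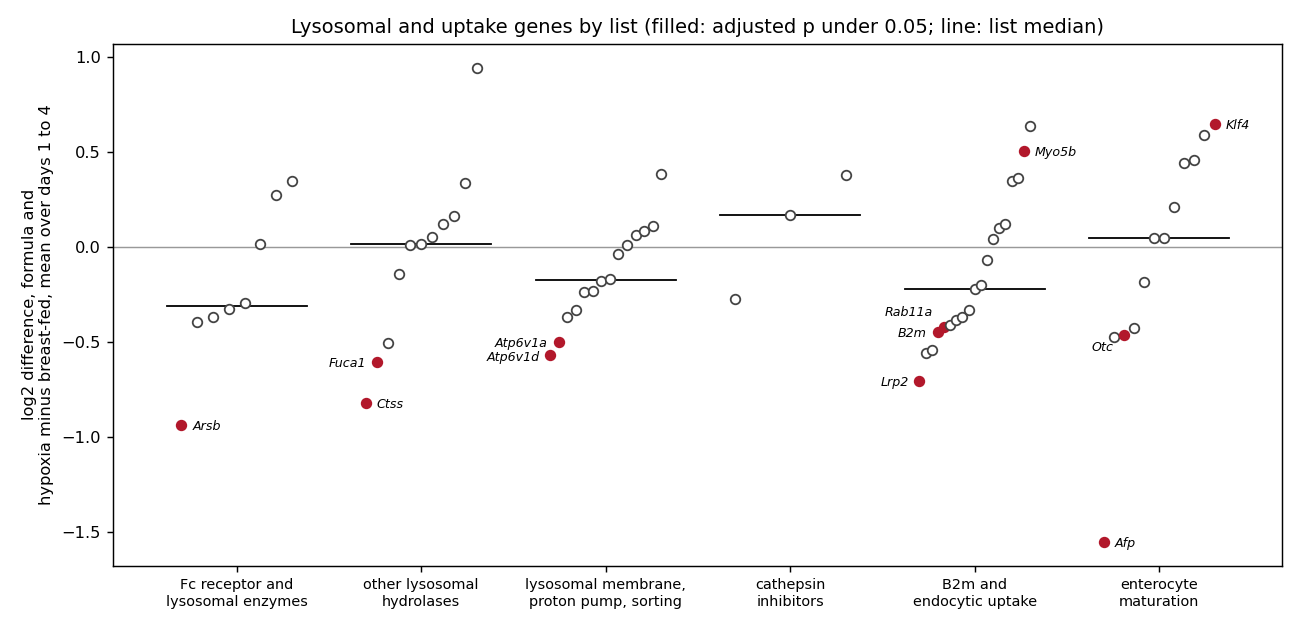
Log2 difference, formula and hypoxia minus breast-fed, averaged over days 1 to 4, for the genes tested in each list. Each point is 1 gene, filled points have an adjusted p under 0.05 and lines are list medians. Of the 8 genes on the left, Arsb is filled.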

How the data were processed

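Total RNA of the terminal ileum was hybridised to Affymetrix rat arrays, 1 per pup. The deposited table holds 1 intensity per probe set and array, on a linear scale. From the deposited values, 26 of 28 arrays share a 2% trimmed mean near 150, so most arrays had been scaled to a common target. Breast-fed day 1 replicate 2 had a trimmed mean of 109.2 and breast-fed day 4 replicate 1 of 209.2. The software behind the intensities is not given in the sources used here.

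The intensities were quantile normalised, a pseudocount of 8 was added and log2 was taken. Of 8799 probe sets, 59 controls were left out. Probe sets were kept above the 40th percentile of mean log2 value (a signal of 24.0), and the brightest stood for a gene, which gave 3185 of 4736 genes. Differences came from limma 3.58.1 in R 4.3.3, with 1 mean per group over 28 arrays (19 residual degrees of freedom), empirical Bayes moderation with an intensity trend, two-sided tests and Benjamini-Hochberg adjustment. The number of arrays limits the precision, and p-values measure the spread between these pups. The fit was tested on simulated data.

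Groups, replicate numbers and days come from the labels. Same-numbered arrays of different groups did not deviate together (median correlation -0.00226 over 108 pairs), so the numbers were not taken as pairs. No 2 arrays were identical.

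Members and lists were chosen with earlier results of these data known. Named genes are the members, B2m, the 5 genes most like Fcgrt over group means, and up to 4 called genes per direction and list for the mean over days and for day 4 against day 1. Alternatives were other scalings, pseudocounts of 2 and 32, other filters, the mean of probe sets, array weights, left-out arrays, accession runs, a replicate block and fits of the compared groups alone. Promoter sequences are from RefSeq (GRCr8).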

Additional observations from a re-analysis of the deposited data

Results flagged for a closer look

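Ctsh in unfed newborns had 1 pup far from the others. Its signals were 732, 702, 754 and 1134, and the gap of unfed replicate 4 to its nearest neighbour was 0.88 of the range, above Dixon's 95% critical value for 4 samples. The rule was applied to 9 genes in this group, and chance alone flags about 1 in 20 groups.

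The Fcgrt difference between the regimens had opposite signs on different days. All 3 formula and hypoxia pups lay above the breast-fed mean on days 1 and 2 and below it on day 4. The day 4 difference minus the day 1 difference was -1.27 on the log2 scale (adjusted p = 0.513 in limma). It ranged from -1.52 to -0.99 as each array was left out in turn, with the value nearest 0 without breast-fed day 4 replicate 1. The day 4 difference minus the day 2 difference was -1.17, which was not tested. Breast-fed day 4 lies wholly in the second accession run, and with the run as a term the first of these was -1.20 (adjusted p = 0.63).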

How the results depend on the processing

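Of 217 alternative counts of called genes among the 8, 182 stayed within 1.5 times the reported count and 35 moved. Over days the count of 1 became 2 with the values as deposited (Ctsh and Arsb) and 3 with the mean of probe sets (Lamp2, Ctsl and Arsb). It became 4 with array weights (Lamp2, Ctsh, Ctsl and Arsb). Without both arrays short of probe sets it was 2 (Lamp1 and Arsb), as with only the groups compared (Ctsl and Arsb). It also moved within accession run 2, which holds 1 formula and hypoxia array, so that only day 4 entered. On day 1 the count of 1 became 0 with the values as deposited, the run as a term and only the groups compared. On day 4 the count of 1 became 0 with the values as deposited, the run as a term, run 2 alone and only the groups compared, and 2 with the mean of probe sets (Ctsl and Arsb) and with array weights (Lamp1 and Arsb). Without both arrays it stayed at 1, but the gene was Lamp1. Breast-fed day 1 against unfed moved to 1 with array weights (Ctsl). Day 4 against day 1 under formula and hypoxia moved to 1 with a pseudocount of 32, a 60th percentile filter, without both arrays, within run 1 and with only the groups compared (Ctsb in each), and to 2 with array weights (Ctsb and Ctsl). As each array was left out in turn, the count over days ran from 1 to 2 (2, with Ctsh, without breast-fed day 1 or day 4 replicate 1), on day 1 from 0 to 0, on day 4 from 0 to 1 (Lamp1 and not Arsb without breast-fed replicate 2), for breast-fed day 1 against unfed from 0 to 1 (Ctsl, without unfed replicate 2), for formula and hypoxia day 1 against unfed from 0 to 1 (Arsb, without unfed replicate 1), and elsewhere from 0 to 0. The replicate block moved none of these counts (Arsb over days -0.94, adjusted p = 8.17e-05). The cause of these shifts was not tested, except that run 2 and the fits of the compared groups alone hold fewer arrays.

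Of 2485 alternative differences of single named genes, 2326 kept their side of the threshold, 134 lost the call and 25 gained it. In 95 the sign turned, in none of them with a call in either fit. Among the means over days this touched Ctsd and, within run 2 alone, Fcgrt (-0.38). Only day 4 entered in run 2, and with all arrays the Fcgrt difference on day 4 was -0.48. With the values as deposited, in which most arrays already share a scale, the median of all genes shifted to 0.32 for breast-fed day 4 against day 1. It was -0.24 for the interaction, 0.17 on day 1 and 0.14 on day 3. For formula and hypoxia it was 0.13 for day 1 against unfed and 0.11 for day 4 against day 1. With a common median it was -0.14 on day 3 and -0.14 for the interaction. The split of calls over days was 149 higher and 215 lower, against 129 and 153 as deposited and 90 and 244 with a common median. With each array left out, all genes called numbered 0 to 3 on day 1 (9 reported), 19 to 28 on day 2 (47), 29 to 83 on day 3 (63), 15 to 56 on day 4 (64), 150 to 362 for formula and hypoxia day 4 against day 1 (425), 2 to 34 for breast-fed day 4 against day 1 (10), 3 to 18 for formula and hypoxia day 1 against unfed (12), 0 to 3 for breast-fed day 1 against unfed (0) and 1 to 8 for the interaction (5).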
